A study of Mus musculus with 20 samples.

Results

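The natural killer (NK) cell and interleukin 15 (IL-15) genes of the mouse uterus were examined in RNA-seq data, as 10 genes picked by symbol from the 45777 genes listed by the authors. They are the cytokine gene Il15, the receptor genes Il15ra and Il2rb, the transcription factor genes Eomes and Tbx21, the surface receptor genes Ncr1 and Klrb1c, and the cytotoxic genes Gzma, Gzmb and Prf1. All 10 were above 0 TPM (a transcript level corrected for transcript length and scaled to the same total in every library) in all 20 libraries, which was the filter met by 18706 genes.

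The mice were pregnant wild-type B6D2F1 females aged 8 to 12 weeks, mated in their natural cycle, and each group had 5 mice with 1 library of poly(A) RNA per mouse, from 1 uterine horn. All uteri were taken at 18:00 on day 3.5, counted from the morning of the plug. Control mice received neither drug nor cells. IF mice, the model of implantation failure, received RU486, an antagonist of the progesterone and glucocorticoid receptors, at 3 mg/kg under the skin at 9:00 on the same day. PBMC mice received the same RU486 after an intrauterine injection on day 1.5 of 50000 peripheral blood mononuclear cells (PBMCs) per horn, taken from non-pregnant mice and cultured for 24 h. PBMC-hCG mice differed from these in that the cells had been cultured with 5 IU/mL human chorionic gonadotropin (hCG). No library came from the study's group injected with hCG-containing medium and no cells. The effect of the injection and that of the cells thus cannot be told apart.

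NK cells are innate lymphocytes that kill through perforin and granzymes, and in the uterus they become abundant as the endometrium decidualizes, where they are known for their part in remodelling the spiral arteries. They depend on IL-15, which is held on the surface of a neighbouring cell by its private receptor chain IL-15Rα and presented to the β chain, encoded by Il2rb, and the common γ chain on the NK cell. Signals then pass through JAK1, JAK3 and STAT5, and the T-box factors EOMES and T-bet, encoded by Tbx21, direct NK cell maturation. PBMCs also contain NK cells, and the RNA of transferred cells and of the recipient's own cells cannot be told apart. Nor can fewer cells of a type be told apart from less RNA per cell in bulk tissue.

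In short stretches of sequence upstream of a gene, a match to the interferon-stimulated response element (ISRE, searched on both strands as GAAA, any 2 letters, GAAA) is shown because Eomes and Gzma, which differed from control in at least 1 comparison below, held the same 10 letters. Promoter windows of RefSeq on GRCm38.p6, from 250 bases before to 50 bases after each start site, were at hand for 8 of the 10 genes, as 10 windows, and 3.44% of 32851 windows of all genes held an ISRE match. The capitals mark it. The Eomes stretch is chr9:118477985-118478070 on the plus strand, where the match starts 154 bases before the start site. The Gzma stretch is chr13:113101043-113101128 on the minus strand, and there the match lies on the opposite strand, 97 bases before the start site.
Eomes: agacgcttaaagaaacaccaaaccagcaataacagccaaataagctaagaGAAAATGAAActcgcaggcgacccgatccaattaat
Gzma: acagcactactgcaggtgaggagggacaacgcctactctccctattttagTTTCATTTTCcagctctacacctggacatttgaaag
The match is a description of these letters, not a site shown to be bound. A γ-interferon activation site (GAS, TTCNNNGAA), found in 8.3% of all windows, was matched in Gzmb, within the transcribed bases. The T-box letters AGGTGTGA (1.28% of windows), the ETS letters CCGGAAGT (3.89%) and the palindromic response elements for steroid receptors (0.475%) and estrogen (0.07%) were matched in none of the 10 windows.

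The libraries each summed to between 999989 and 999999 TPM, so the number of reads is unknown and no counting interval can be given. Markers of uterine tissue (12 of 12, among them Esr1, Pgr and Hoxa10) were present in every library. Control replicate 2 correlated least with its group (median r of 0.963, against 0.98 to 0.99 for every other library) and had the lowest Gzma, Gzmb and Prf1 of all 20. Values without it are given beside the results whose call or size it changed most. Differences between groups were tested with limma on log2(TPM + 0.1) over all 18706 genes, with Benjamini-Hochberg adjustment in each comparison, and a gene was called at an adjusted p below 0.05. The labels do not say whether the mice were independent in cage or litter, so the p-values measure the spread between these mice.

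Averaged over the 20 mice, Il2rb was highest at 55.4 TPM, followed by Gzmb (42.3), Gzma (26.2), Ncr1 (21.2), Prf1 (18.7), Il15 (16.1), Il15ra (13.3), Klrb1c (7.37), Eomes (5.83) and Tbx21 (2.34). The ranges over mice of neighbours in this order overlapped, except that every mouse's Eomes (3.75 TPM or more) was above every mouse's Tbx21 (3.65 or less). The plot of TPM by mouse shows how far the genes differed in their spread. The highest mouse exceeded the lowest 5.9-fold for Gzma and 1.94-fold for Il2rb.

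**Figure D1:**
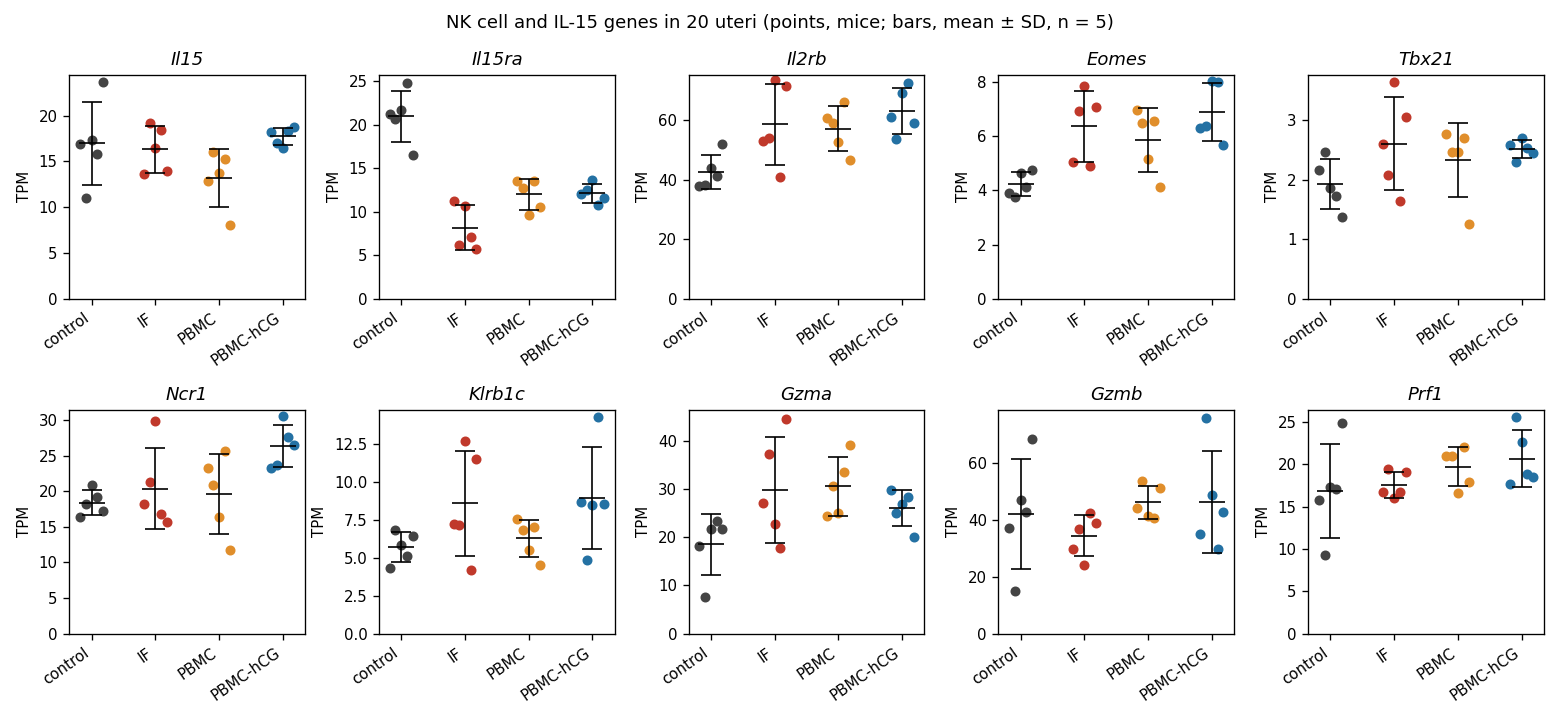
TPM of the 10 genes in each of 20 uteri, with the vertical axis starting at 0, a point for each mouse and bars for the mean ± SD of 5 mice per group. Il15ra in the control group (16.5 to 24.8 TPM) lay above every mouse of the other groups, whereas Il15 overlapped between control and IF mice.

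Il15ra, which encodes the chain that presents IL-15 (NCBI gene 16169, GRCm38 chromosome 2, 11705172 to 11733985), showed the largest difference among the 10 genes. The control mice had 21.3, 20.6, 21.6, 24.8 and 16.5 TPM, and the IF mice 11.2, 6.14, 10.7, 7.04 and 5.69 TPM. The PBMC mice had 13.6, 12.7, 9.65, 13.5 and 10.5 TPM, and the PBMC-hCG mice 12.0, 12.5, 13.7, 10.8 and 11.5 TPM. Every control mouse was above every mouse given RU486, and the injected groups overlapped with the upper IF mice.

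Il15ra averaged 20.9 ± 2.97 TPM in control and 8.14 ± 2.59 TPM in IF mice (SD, 5 mice per group). It fell with RU486 by a log2 fold change of -1.40 (SE 0.17, limma adjusted p = 1.15e-05), which is 2.63-fold lower. It was the only member that also met the study's criteria of a 2-fold change and a raw p below 0.05, which 4.03% of all genes met. It was also lower than control in the PBMC group (12.0 ± 1.79 TPM, log2 fold change -0.80, SE 0.17, limma adjusted p = 0.00235) and in the PBMC-hCG group (12.1 ± 1.07 TPM, -0.78, SE 0.17, limma adjusted p = 0.00195). These 3 comparisons share the control mice. In all of them the call held when any mouse was left out.

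Between the groups given RU486, Il15ra was higher in PBMC-hCG than in IF mice by a log2 fold change of 0.62 (SE 0.17, limma adjusted p = 0.0326), or 1.53-fold. The call was lost in fits without IF replicate 2, 4 or 5 or without PBMC-hCG replicate 2, 3, 4 or 5, with adjusted p-values of 0.0594 to 0.11 and log2 fold changes that stayed at 0.50 or above. In the PBMC group the difference from IF was of like size, 0.60 (SE 0.17), but its adjusted p was 0.623 in limma, with a raw p of 0.00224. The groups PBMC-hCG and PBMC differed in Il15ra by 0.02 on the log2 scale, with a 95% interval of -0.33 to 0.37. The 2 adjusted p-values differ because the adjustment depends on all genes of each comparison, so Il15ra is not shown to have responded in only 1 of the injected groups.

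Il15, the cytokine gene (NCBI gene 16168, chromosome 8, 82331624 to 82403252), stood at 16.9, 11.04, 17.3, 15.9 and 23.7 TPM in the controls. The IF mice had 13.6, 19.2, 16.5, 18.5 and 13.97 TPM. The PBMC mice had 12.8, 16.1, 13.8, 15.3 and 8.03 TPM, and the PBMC-hCG mice 18.2, 17.0, 16.4, 18.3 and 18.7 TPM. Control and IF mice overlapped throughout, whereas all PBMC-hCG mice lay above all PBMC mice, a separation seen in 3.46% of all genes. Il15 was not called in any of the 6 comparisons.

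Between IF and control mice the log2 fold change of Il15 was -0.03, with a 95% interval of -0.41 to 0.35, which excludes a fall as large as that of Il15ra. Between PBMC-hCG and PBMC mice it was 0.46 (SE 0.18, interval 0.08 to 0.84), with a raw p of 0.0199 and a limma adjusted p of 0.283. Against control, Il15 in the PBMC group was at -0.36 (adjusted p = 0.184), and without control replicate 2 this became -0.50 with a limma adjusted p of 0.0356.

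Il15ra and Il15 can be set against each other within a mouse, on the per-length TPM scale. This ratio was chosen after the values had been seen and is given without a test. It was 1.25, 1.87, 1.25, 1.56 and 0.695 in control mice, and 0.824, 0.321, 0.647, 0.381 and 0.407 in IF mice. In PBMC mice it was 1.06, 0.793, 0.700, 0.882 and 1.31, and in PBMC-hCG mice 0.661, 0.734, 0.832, 0.591 and 0.616. Receptor chain transcripts outnumbered those of the cytokine in 4 of 5 control mice, in 2 of 5 PBMC mice and in none of the IF or PBMC-hCG mice. The group means were 1.32 ± 0.435, 0.516 ± 0.212, 0.949 ± 0.242 and 0.687 ± 0.0979 (SD, n = 5) for control, IF, PBMC and PBMC-hCG.

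**Figure D2:**
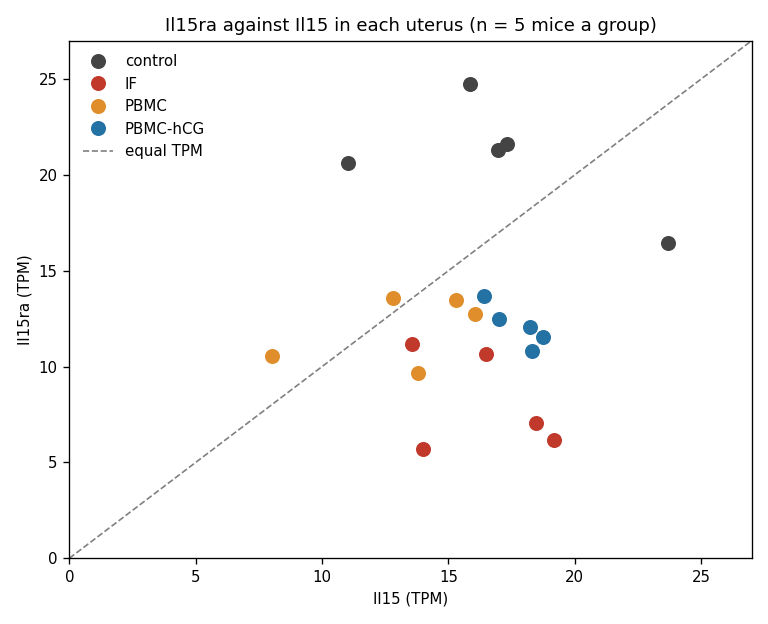
Il15ra (vertical axis, TPM) against Il15 (horizontal axis, TPM) in each mouse, with 5 mice per group and a dashed line where both are equal. In 4 control mice and 2 PBMC mice Il15ra exceeded Il15, and all IF and PBMC-hCG mice lay below the line.

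Il2rb, the β chain that NK cells use to receive IL-15 (NCBI gene 16185, chromosome 15, 78479256 to 78511621), differed in the opposite direction from Il15ra. The controls had 37.8, 38.4, 43.9, 41.1 and 51.9 TPM, and the IF mice 53.1, 54.1, 73.5, 41.1 and 71.4 TPM. The PBMC mice had 60.9, 59.3, 52.7, 66.3 and 46.8 TPM, and the PBMC-hCG mice 61.2, 53.7, 69.4, 72.6 and 59.0 TPM. All PBMC-hCG mice were above all control mice, while 1 IF mouse (replicate 4) and 1 PBMC mouse (replicate 5) fell within the control range.

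Il2rb rose in IF mice by a log2 fold change of 0.44 (SE 0.14, limma adjusted p = 0.0315), in PBMC mice by 0.42 (SE 0.14, limma adjusted p = 0.0403) and in PBMC-hCG mice by 0.57 (SE 0.14, limma adjusted p = 0.00507), each against control. Only the call for PBMC-hCG held in every fit without 1 mouse. The IF call was lost without control replicate 1, 2 or 4 or IF replicate 3 or 5 (adjusted p of 0.0555 to 0.0927), and the PBMC call without control replicate 1, 2, 3 or 4 or PBMC replicate 1, 2, 3 or 4 (0.0524 to 0.103). Among the groups given RU486 the largest difference in Il2rb was 0.14 on the log2 scale (PBMC-hCG against PBMC), and the 95% interval between PBMC-hCG and IF was -0.16 to 0.42.

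Eomes (NCBI gene 13813, chromosome 9, 118478186 to 118486132), whose factor is required for conventional NK cell maturation, was low in control mice, at 3.88, 3.75, 4.63, 4.10 and 4.76 TPM. The IF mice had 5.06, 6.93, 7.86, 4.87 and 7.06 TPM, the PBMC mice 6.96, 6.47, 5.15, 6.56 and 4.12 TPM, and the PBMC-hCG mice 6.30, 6.37, 8.04, 7.99 and 5.67 TPM. No IF or PBMC-hCG mouse reached down to the control range, and PBMC replicate 5 was the only mouse of the groups given RU486 within it.

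Eomes rose by 0.56 on the log2 scale in IF mice (SE 0.16, limma adjusted p = 0.0177) and by 0.68 in PBMC-hCG mice (SE 0.16, limma adjusted p = 0.00368), or 1.47-fold and 1.61-fold over control, and both calls held without any 1 mouse. In PBMC mice it was 0.44 above control with a limma adjusted p of 0.0616, which became 0.0152 without PBMC replicate 5. Tbx21 (NCBI gene 57765, chromosome 11, 97098007 to 97115331), which encodes T-bet, ranged from 1.37 to 2.47 TPM in control mice, 1.65 to 3.65 in IF, 1.26 to 2.78 in PBMC and 2.30 to 2.70 in PBMC-hCG mice. It was called in no comparison. Its log2 difference between IF and control was 0.40, with an interval of -0.06 to 0.86.

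Ncr1 encodes NKp46, an activating receptor that marks NK cells and related innate lymphoid cells (NCBI gene 17086, chromosome 7, 4337715 to 4345184). The controls had 16.4, 18.2, 20.9, 19.2 and 17.2 TPM, the IF mice 18.2, 21.3, 29.9, 16.8 and 15.7 TPM, and the PBMC mice 23.3, 20.9, 16.4, 25.7 and 11.8 TPM. The PBMC-hCG mice had 23.3, 23.7, 30.5, 27.6 and 26.5 TPM, all above the highest control mouse. IF and PBMC mice spread on both sides of the control range.

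Ncr1 was not called against control in IF or PBMC mice and rose in PBMC-hCG mice by 0.51 (SE 0.18, limma adjusted p = 0.0399), or 1.43-fold. That call was lost without control replicate 1, 4 or 5 or PBMC-hCG replicate 3, 4 or 5 (adjusted p of 0.0576 to 0.0951). The direct differences of PBMC-hCG from IF (0.40, interval 0.02 to 0.79, limma adjusted p = 0.129) and from PBMC (0.47, interval 0.08 to 0.85, limma adjusted p = 0.283) were not called, although without IF replicate 3 the former had an adjusted p of 0.0271.

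Klrb1c, which encodes the NK1.1 antigen (NCBI gene 17059, chromosome 6, 128778485 to 128788641), ranged from 4.34 to 6.81 TPM in control, 4.21 to 12.7 in IF, 4.54 to 7.51 in PBMC and 4.86 to 14.2 in PBMC-hCG mice. No comparison was called. The log2 difference from control was 0.49 in IF mice (limma adjusted p = 0.216) and 0.58 in PBMC-hCG mice (limma adjusted p = 0.113, and 0.0372 without PBMC-hCG replicate 2). Klrb1c has close paralogs on the same chromosome, and reads may be divided among them.

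Gzma encodes granzyme A, a trypsin-like protease of cytotoxic granules (NCBI gene 14938, chromosome 13, 113093824 to 113100981). The control mice had 18.2, 7.56, 21.7, 23.3 and 21.7 TPM, and the IF mice 26.99, 37.2, 22.7, 17.7 and 44.6 TPM. The PBMC mice had 24.4, 30.7, 25.1, 33.5 and 39.1 TPM, and the PBMC-hCG mice 29.8, 25.1, 26.9, 28.4 and 20.1 TPM. All PBMC mice were above all control mice, and the other groups overlapped with control.

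Gzma rose in PBMC mice by 0.80 on the log2 scale (SE 0.27, limma adjusted p = 0.0461), or 1.74-fold, and the difference was 0.51 (limma adjusted p = 0.0894) without control replicate 2, whose Gzma was the lowest of all mice. The call was lost without control replicate 1 or 2 or PBMC replicate 2, 3, 4 or 5 (adjusted p of 0.0537 to 0.097). In IF mice the difference from control was 0.71 with a limma adjusted p of 0.0711, which became 0.0306 (difference 0.88) without IF replicate 4 and 0.16 (difference 0.42) without control replicate 2. In PBMC-hCG mice it was 0.58 (limma adjusted p = 0.113), and 0.29 without control replicate 2 (limma adjusted p = 0.297). The PBMC group is thus not shown to differ from the other groups given RU486, and its direct difference from IF was 0.09, with an interval of -0.48 to 0.66.

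Gzmb and Prf1 were called nowhere. Gzmb, which encodes granzyme B, an inducer of apoptosis (NCBI gene 14939, chromosome 14, 56258836 to 56262334), ranged from 15.0 to 68.4 TPM in control mice, 24.3 to 42.5 in IF, 40.9 to 53.7 in PBMC and 29.7 to 75.8 in PBMC-hCG mice, and its IF to control difference was -0.16 (interval -0.79 to 0.47). Prf1, the gene of perforin (NCBI gene 18646, chromosome 10, 61297751 to 61304684), ranged from 9.31 to 24.9, 16.1 to 19.4, 16.6 to 22.1 and 17.7 to 25.7 TPM in the same order. Its log2 difference between PBMC-hCG and control was 0.35 (limma adjusted p = 0.147), and 0.0265 was its adjusted p without control replicate 5. Without control replicate 2, the lowest mouse in both genes, the difference of Gzmb between IF and control was -0.49 (limma adjusted p = 0.122) and that of Prf1 between PBMC-hCG and control 0.15.

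Over the 10 genes, 3 were called between IF and control (Eomes and Il2rb higher, Il15ra lower), where 21.9% of all genes were called. In PBMC against control 3 were called (Il2rb and Gzma higher, Il15ra lower) beside 19.5% of all genes, and in PBMC-hCG against control 4 (Eomes, Il2rb and Ncr1 higher, Il15ra lower) beside 31.8%. Lower genes made up 6.7% of all genes in the former and 11.6% in the latter. These shares lie near those of all genes, so the counts give no result about the 10 genes as a group. In PBMC-hCG against IF, 1 gene (Il15ra, higher) was called beside 13.6%, or 7.61% higher. None was called by limma in PBMC against IF, where 0% of all genes were called, or in PBMC-hCG against PBMC, where 0.0107% were. At an unadjusted p below 0.05 these comparisons held 1 (Il15ra) and 2 members (Il15 and Ncr1), beside 6.79% and 16.2% of all genes, and the study's criteria were met by 0 members in either, beside 0.438% and 0.893%. They were likewise met by 0 members in PBMC-hCG against IF (2.31% of all genes), PBMC against control (3.34%) and PBMC-hCG against control (4.74%).

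Groups that did not overlap were seen for 2 members between IF and control (Il15ra and Eomes), beside 12.8% of all genes, for 2 between PBMC and control (Il15ra and Gzma), beside 12.7%, and for 4 between PBMC-hCG and control (Il15ra, Il2rb, Eomes and Ncr1), beside 18.3%. The median log2 fold change of the 10 genes was 0.26, 0.26 and 0.45 in these comparisons, where the median over all tested genes was 0.02, 0.05 and 0.08.

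**Figure D3:**
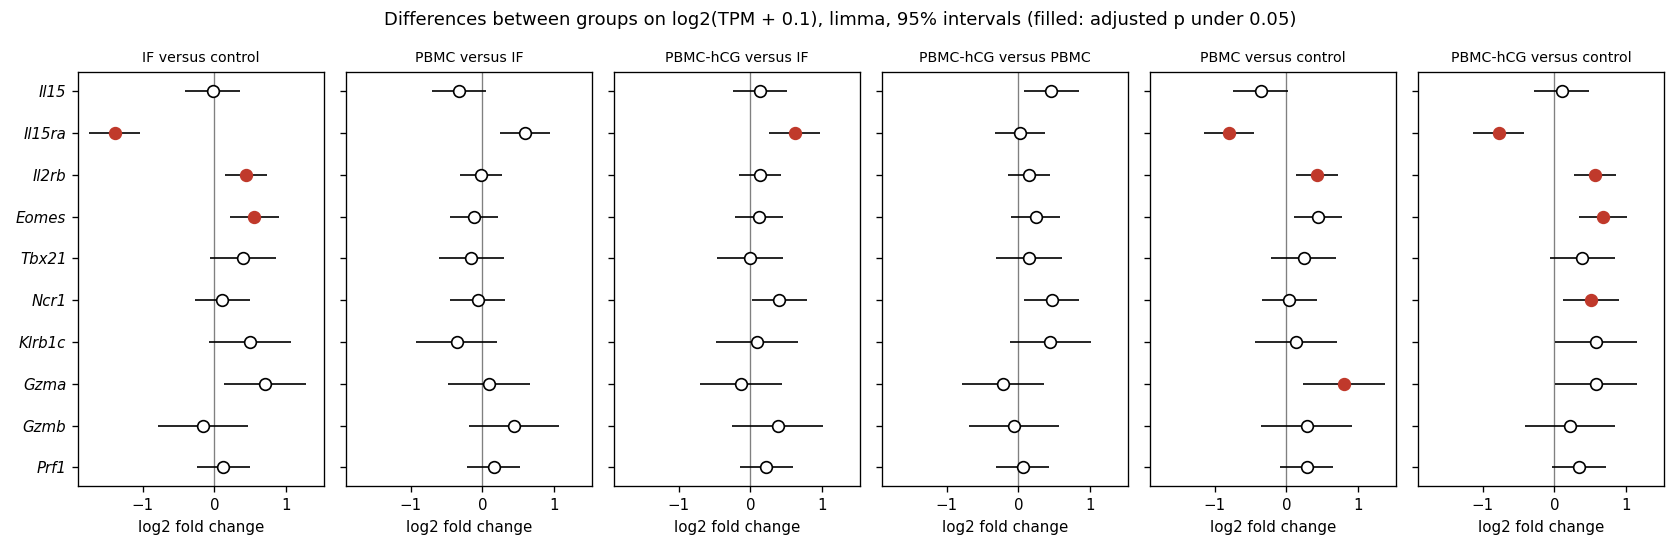
Log2 fold change (horizontal axis, on log2(TPM + 0.1)) of each gene in the 6 comparisons, with 95% intervals from limma and filled points for an adjusted p below 0.05. Il15ra is filled on the lower side in all 3 comparisons with control, while Il2rb is filled on the higher side in the same 3.

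Among other genes of IL-15 signaling, 7 of 16 were called higher and 0 lower in IF against control, beside 13.4% of all genes higher and 8.53% lower. They were the transcription factor genes Stat5a (0.84, SE 0.11, limma adjusted p = 2.60e-05), Stat3 (0.62) and Stat5b (0.26), the kinase gene Pim1 (1.15), the feedback inhibitor gene Socs1 (1.21), the survival gene Mcl1 (0.25) and Il2rg (0.25), which encodes the common γ chain. The count was 4 without control replicate 4 or IF replicate 2, 7 without control replicate 2 (with Cish gained and Il2rg lost), and 5 or 6 without any other mouse. The calls of Stat5a, Stat3, Pim1 and Socs1 held without any 1 mouse and under both other scalings, while those of Stat5b, Mcl1 and Il2rg each failed under 1 scaling and in 4 to 8 of the 10 fits. In PBMC-hCG against IF, 6 of 16 were lower, beside 5.99% of all genes, and 1, the survival gene Bcl2, was higher (0.47). Those that fell were Socs3 (-1.25), Pim1 (-1.005), Socs1 (-0.94), Stat5a (-0.56, SE 0.11, limma adjusted p = 0.0258), Stat3 (-0.43) and the kinase gene Akt1 (-0.33). These 2 comparisons share the IF mice. The 6 lower calls became 0 without IF replicate 2, 4 or 5 or PBMC-hCG replicate 2, 3, 4 or 5, and the Bcl2 call and every listed gene's call named below for PBMC-hCG against IF were lost in the same 7 fits. These are the same mice whose omission left at most 34 calls among all 18706 genes where there had been 2544.

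Uterine epithelium and stroma also use STAT3, STAT5 and the SOCS genes, and the mean levels of this list ran from 1.01 TPM for Il2ra to 174 TPM for Stat3. Which cells carried these differences was not tested. In PBMC against control 5 of 16 were higher (Stat3, Stat5a, Pim1, Il2rg and the kinase gene Jak3), beside 12.8% of all genes, and in PBMC-hCG against control 2 were (Stat5b at 0.36 and Il2rg at 0.24), beside 20.2%. Among these, Jak3 and Pim1 in PBMC and Il2rg in PBMC-hCG mice were lost under at least 1 scaling and in 6, 5 and 3 of 10 fits without 1 mouse. Of 14 listed genes of cytokines that act on NK cells, and of their receptors, Il2 was at 0 in all 20 libraries. Il12a, Il12b and Il21 were at 0 in some. Tgfb1 and its receptor gene Tgfbr2 rose in IF mice (0.74 and 0.65) and in PBMC mice (0.56 and 0.68), and Il18r1, a chain of the IL-18 receptor, rose in PBMC mice (0.62, lost without control replicate 2 or 5 or PBMC replicate 1, 2 or 4). These were 2 and 3 of 10 tested genes, beside 13.4% and 12.8% of all genes called higher.

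NK receptor and adaptor genes lay on the higher side in 2 comparisons that share the control mice. All 25 were above 0 in IF against control, with a median of 0.47 and 2 called beside 13.4% of all genes called higher, the lectin-like receptor gene Klre1 (0.50, limma adjusted p = 0.0426) and the Fc receptor gene Fcgr3 (0.27, limma adjusted p = 0.0321). After quantile normalization 24 were above 0. In PBMC-hCG against control all 25 were above 0 (24 after quantile normalization), with a median of 0.53, and 10 were called, beside 20.2% of all genes called higher. The 6 with the lowest adjusted p were Klrg1 (0.85, SE 0.21, limma adjusted p = 0.00538), Klre1 (0.65), Klra7 (0.82), Klrb1f (0.75), Fcgr3 (0.27) and the NKG2D gene Klrk1 (0.68). Of all tested genes, 9982 of 18706 were above 0 in the former comparison and 11069 in the latter. The 25 genes share their libraries and can move together, so they are not 25 separate results. The calls of Klrg1, Klre1 and Klra7 held without any 1 mouse and under both scalings. Klrb1f was lost without PBMC-hCG replicate 3, Klrk1 without control replicate 1, 4 or 5 or PBMC-hCG replicate 4, and Fcgr3 after median ratio scaling (limma adjusted p = 0.138) and without control replicate 3 or 5 or PBMC-hCG replicate 1 or 2. The count of 10 became 5 without control replicate 1 or with PBMC-hCG replicate 4 left out, 6 without control replicate 4 or 5 or PBMC-hCG replicate 1 or 3, and 11 without control replicate 2. The IF count of 2 became 8 without IF replicate 4, 1 without control replicate 1, 2 or 4 or IF replicate 2 and after quantile normalization, and 0 after scaling by the median ratio and without control replicate 3 or 5 or IF replicate 3 or 5. In PBMC against control 21 of 25 were above 0, where 10767 of all genes were, and 1 (Fcgr3, 0.40) was called beside 12.8% of all genes.

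**Figure D4:**
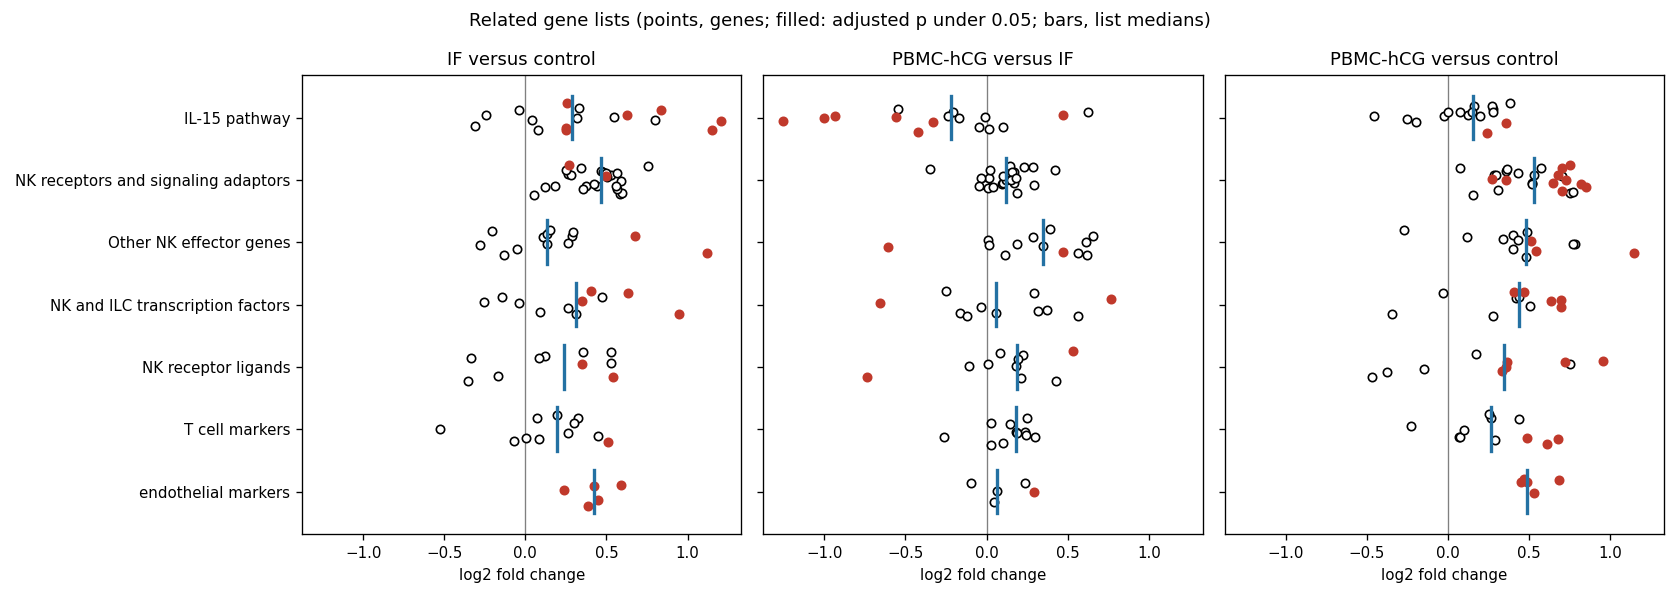
Log2 fold changes (horizontal axis) of genes in 7 lists for IF against control, PBMC-hCG against IF and PBMC-hCG against control, a point for each gene, filled where the adjusted p was below 0.05, with a bar at the list median. The NK receptor genes lie above 0 in both comparisons with control (24 of 25 after quantile normalization), and the IL-15 pathway median passes from 0.29 in IF against control to -0.22 in PBMC-hCG against IF.

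Members of the receptor list are not all specific to NK cells, since Fcgr3, Tyrobp and Fcer1g are also expressed by myeloid cells, and the Klra and Klrb1 genes are families in which reads may be shared. Tyrobp (205 TPM) was the highest of the list and Klra1 (0.839 TPM) the lowest. Among other effector genes, the granule proteoglycan gene Srgn rose in IF (1.12), PBMC (0.67) and PBMC-hCG mice (0.51) against control and fell in PBMC-hCG against IF mice (-0.61). Tnfsf10, which encodes the death ligand TRAIL, rose against control in all 3 groups (0.68, 0.55 and 1.15) and in PBMC-hCG against IF mice (0.47, limma adjusted p = 0.048, and 0.0604 after median ratio scaling). Nkg7, a granule membrane gene, rose in PBMC-hCG against control (0.55), a call lost without control replicate 1 or PBMC-hCG replicate 3 or 4. Of 13 tested effector genes, 2, 2 and 3 were called higher in the IF, PBMC and PBMC-hCG groups, beside 13.4%, 12.8% and 20.2% of all genes. For Srgn and Tnfsf10 in PBMC-hCG against IF mice, leaving out any 1 of the 7 mice named for the IL-15 list ended the call, and Tnfsf10 in PBMC mice was lost without PBMC replicate 4. Gzmf (104 TPM) and Gzmc (38.2 TPM), which lie with Gzmb in a cluster of related genes whose reads may be shared, were not called, and Ifng averaged 0.381 TPM and was at 0 in 1 library.

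Of 11 tested transcription factor genes of NK and other innate lymphoid cells, 4 rose in IF and in PBMC mice against control, namely Ets1 (0.63 and 0.58), Prdm1 (0.95 and 0.86), Irf8 (0.35 and 0.43) and Zeb2 (0.41 and 0.51). In PBMC-hCG mice these rose as well (0.47, 0.70, 0.41 and 0.70), together with Ikzf3 (0.63). The shares of all genes called higher were 13.4%, 12.8% and 20.2%, and all these calls held without any 1 mouse. In PBMC-hCG against IF, Tox rose (0.77) and Nfil3 fell (-0.66), but neither was called without any 1 of the same 7 mice. Zfp683 was not found among the listed symbols. Of 8 tested markers of tissue-resident cells, Itga1, the integrin that marks resident NK cells, rose against control in IF (0.25), PBMC (0.34) and PBMC-hCG mice (0.30), and Cxcr6 rose in PBMC mice (0.75). With Tnfsf10, which is also on this list, 2, 3 and 2 of the 8 were higher, beside 13.4%, 12.8% and 20.2% of all genes. The Itga1 call in IF mice was lost without control replicate 1 or 3 or IF replicate 3 or 5 and after median ratio scaling (limma adjusted p = 0.0529), and the Cxcr6 call without control replicate 3, 4 or 5 or PBMC replicate 2, 3 or 4.

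Among genes for ligands of NK receptors, Clec2d, whose product binds the inhibitory receptor NKR-P1B, rose against control in IF (0.54), PBMC (0.42) and PBMC-hCG mice (0.72), and Nectin2, a DNAM-1 ligand, in the same groups (0.35, 0.32 and 0.36). In PBMC mice the call of Clec2d was lost under both other scalings (limma adjusted p = 0.113 and 0.0806) and in 8 of 10 fits without 1 mouse (all but those without control replicate 2 or PBMC replicate 5), and that of Nectin2 after median ratio scaling (limma adjusted p = 0.0601). H2-T23, the gene of Qa-1, which presents peptides to CD94/NKG2A, rose in PBMC-hCG mice against control (0.96, limma adjusted p = 0.0062), as did Cd48 (0.34). So did Cd1d1 (0.36), which is on this list but does not encode an established ligand of NK receptors. The calls of Cd48 and Cd1d1 were lost under both scalings and in 7 and 8 of 10 fits without 1 mouse. Called higher were 2, 2 and 5 of 10 tested genes of this list in IF, PBMC and PBMC-hCG mice, beside 13.4%, 12.8% and 20.2% of all genes. Against IF mice, Cd1d1 rose (0.53) and Pvr, another DNAM-1 ligand, fell (-0.73) in PBMC-hCG mice, again not without any 1 of the 7 mice named above. Raet1d and Ulbp1, which encode NKG2D ligands, were not called with all mice (-0.34 and -0.36 in IF against control). Without control replicate 2 both were lower than control in IF mice (-0.98 and -0.97, limma adjusted p = 0.0243 and 0.0086) and in PBMC-hCG mice (-0.79 and -1.08, limma adjusted p = 0.0487 and 0.0029), Ulbp1 also in PBMC mice (-0.94, limma adjusted p = 0.0117), and H2-T23 was higher in IF mice (0.79, limma adjusted p = 0.0047) and in PBMC mice (0.73, limma adjusted p = 0.00881). H60b was at 0 in 18 of 20 libraries.

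Some of the listed markers of other cells also differed from control. The 5 endothelial genes (Pecam1, Cdh5, Kdr, Tek and Emcn) were higher than control in all 3 groups given RU486, in 5 of 5 each time, beside 13.4%, 12.8% and 20.2% of all genes in IF, PBMC and PBMC-hCG mice. Emcn in IF mice was the only one of these calls lost, without control replicate 5 and after quantile normalization (limma adjusted p = 0.052). Their summed level was 316 to 425 TPM in control, 473 to 510 in IF, 479 to 545 in PBMC and 523 to 590 in PBMC-hCG mice. Of 11 tested T cell markers 1 (Cd247) was higher in IF, 0 in PBMC (limma, with Cd247 at an unadjusted p of 0.0248) and 3 (Cd247, Cd4 and Lck) in PBMC-hCG mice than in control, counts to be read against the same shares. Cd3e, Cd3d and Cd3g were called in no comparison with control. Their means were 2.01, 2.32 and 7.48 TPM in control and 1.94, 2.75 and 7.67 TPM in PBMC-hCG mice. In PBMC-hCG against control, 10 of the 11 log2 fold changes were above 0. The called genes Cd247, Cd4 and Lck are not specific to T cells, and whether the number of T cells differed was not tested. The Cd247 call in IF mice was lost without control replicate 5 or IF replicate 3 or 5, and that of Lck without PBMC-hCG replicate 4. The summed T cell markers were 31.4 to 47.8 TPM in control, 32.1 to 56.3 in IF, 37.2 to 51.1 in PBMC and 40.2 to 61.5 in PBMC-hCG mice, and Cd8b1 was at 0 in 2 libraries.

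Of 4 tested B cell markers 0 were called by limma in the comparisons with control, where 0 also had an unadjusted p below 0.05. Ms4a1 and Pax5, which are further markers of B cells, were at 0 in 6 and 5 libraries. Among 10 macrophage and monocyte markers, Csf1r and Adgre1 were higher in IF and in PBMC-hCG than in control mice, beside 13.4% and 20.2% of all genes called higher. Both IF calls were lost under both scalings (limma adjusted p of 0.0761 to 0.117) and in 7 and 8 of 10 fits without 1 mouse. The sums were 1110 to 1283, 1158 to 1322, 1231 to 1356 and 1152 to 1631 TPM in control, IF, PBMC and PBMC-hCG mice. The dendritic cell markers, of which Zbtb46 was called higher in IF than in control mice (0.23, but not under either other scaling or in 7 of 10 fits without 1 mouse), summed to 26.97 to 45.9 TPM over all mice. The neutrophil gene S100a9 was higher than control in IF (1.37, but 1.01 with a limma adjusted p of 0.0964 without control replicate 2, and lost in 6 of 10 fits without 1 mouse), PBMC (2.73) and PBMC-hCG mice (1.64) and S100a8 in PBMC mice (1.64), while Ly6g and Cxcr2 were at 0 in some libraries. Of the 12 markers of uterine tissue, 5 were higher and 3 lower in IF, 5 and 2 in PBMC and 5 and 4 in PBMC-hCG mice than in control. The shares of all genes called higher and lower were 13.4% and 8.53% in IF, 12.8% and 6.7% in PBMC and 20.2% and 11.6% in PBMC-hCG mice. The B cell, dendritic cell and neutrophil calls are to be read against the same shares. The uterine genes called included the steroid receptor genes Pgr (1.71 in IF against control) and Esr1 (0.51), which were higher, and the homeobox genes Hoxa10 (-0.92) and Hoxa11 (-1.09), which were lower, and these 4 calls held without any 1 mouse and under both scalings. The IF calls of the epithelial genes Epcam, Krt8 and Krt18 were lost under both scalings, and that of the muscle gene Acta2 in 8 of 10 fits without 1 mouse. The part of these cells and genes in the values of the NK cell and IL-15 genes was not tested.

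The 10 genes were also compared mouse by mouse, as deviations of log2(TPM + 0.1) from the group means over the 20 mice, in 45 pairs. In 7 pairs Pearson's r passed a permutation test within groups after Benjamini-Hochberg adjustment, and 2 of them also passed with Spearman's rho. Il2rb went with Eomes (r = 0.85, adjusted permutation p = 0.00135, rho = 0.88, adjusted permutation p = 9e-04) and with Klrb1c (r = 0.86, adjusted permutation p = 0.00135, rho = 0.82, adjusted permutation p = 0.0045). Without the 2 mice whose deviation in Il2rb lay farthest from the median, r was 0.81 and 0.78. The farthest mice were judged on only 1 gene of each pair. Il2rb and Il15ra had an r of 0.08 (rho = 0.12, adjusted permutation p = 0.878 and 0.801), and Il15 and Il15ra one of -0.14 (rho = -0.22, adjusted permutation p = 0.718 and 0.57).

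Gzmb went with Prf1 (r = 0.87, adjusted permutation p = 0.0078, rho = 0.65, adjusted permutation p = 0.0505), and r was 0.66 without the 2 mice farthest in Gzmb. Gzmb went against Tbx21 (r = -0.55, adjusted permutation p = 0.0135, rho = -0.58, adjusted permutation p = 0.0567), and r was -0.65 without the 2 mice farthest in Tbx21. Eomes with Ncr1 (r = 0.74) and with Klrb1c (r = 0.69), and Tbx21 with Klrb1c (r = 0.62), each had an adjusted permutation p of 0.0181 for r and 0.0505 to 0.0867 for rho. Without the 2 mice farthest in the gene named first, r was 0.61, 0.58 and 0.43. All these values share a library, so a mouse with more of 1 cell type raises several genes together, and that share was not measured.

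**Figure D5:**
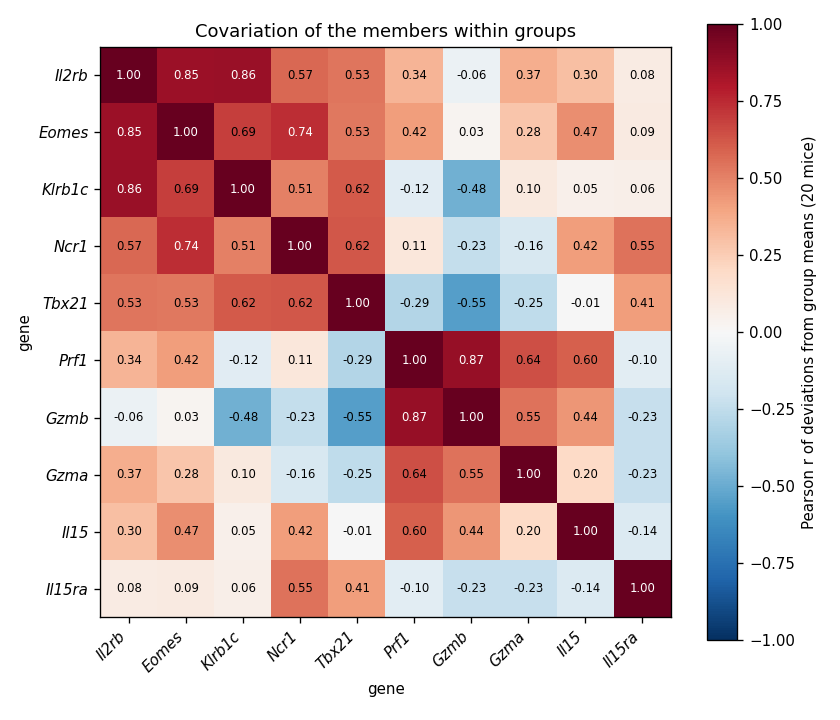
Pearson r between pairs of the 10 genes, computed on deviations from the group means of 20 mice, with colour from -1 (blue) to 1 (red). Il2rb, Eomes and Klrb1c form a block with r from 0.69 to 0.86, Gzmb and Prf1 another at 0.87, and Il15ra has an r of 0.08 with Il2rb.

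The genes most like each member across all 20 libraries, among 15770 others with a mean of at least 1 TPM, were named by Pearson r, with the r within groups beside it. For Il2rb these were Klra7 (0.97, within groups 0.94), Klre1 (0.95, 0.92) and Atp8b4 (0.93, 0.88). For Eomes they were the pseudogene Gm6637 (0.94, 0.91), Il2rb (0.92, 0.85) and Klre1 (0.91, 0.82), and for Klrb1c Klra4 (0.95, 0.94), Ctsw (0.94, 0.94) and Cd7 (0.94, 0.94). Klra7, Klre1 and Klra4 encode lectin-like NK receptors, Ctsw a cathepsin of cytotoxic lymphocytes and Cd7 a lymphocyte surface protein.

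Other members had other neighbours. Gzmb was most like Fanci (0.86, 0.86), Bub1 (0.85, 0.92) and Prf1 (0.85, 0.87), and Prf1 like Smc4 (0.91, 0.90), Wdr62 (0.89, 0.90) and Bub1b (0.88, 0.90). Bub1 and Bub1b encode kinases of the mitotic checkpoint, Smc4 a condensin subunit, Wdr62 a spindle pole protein and Fanci a DNA repair protein. Tbx21 was most like Rasal3 (0.88, 0.86), Traf3ip3 (0.85, 0.83) and Pik3cd (0.85, 0.89), genes expressed in lymphocytes.

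Ncr1 was most like Ecm2 (0.92, 0.88), Cracr2a (0.91, 0.87) and Cldn34c2 (0.90, 0.87), and Gzma like Lgmn (0.88, 0.82), Abhd5 (0.87, 0.81) and Tor1aip2 (0.87, 0.85). Il15 was most like Epha3 (0.81, 0.78), Wdr90 (0.79, 0.82) and Mutyh (0.77, 0.75). Il15ra was most like Tmem200c (0.93, 0.77), Rnf150 (0.92, 0.78) and the metallothionein gene Mt1 (0.92, 0.66), where the fall in r within groups shows how much of the likeness lay between the group means. No test was made of these values, which are the highest of many.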

How the data were processed

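RNA-seq values of 20 mouse uteri, 5 per group, were grouped by the sample labels. The authors deposited a TPM table, made from reads trimmed with Trimmomatic, mapped to mm10 with HISAT2 and assembled with StringTie (versions and annotation not given in the sources used here), without pooling. TPM keeps no depth. The authors tested counts with edgeR, which needs counts, so log2(TPM + 0.1) was tested here with limma 3.58.1 in R 4.3.3, with all 4 groups in the fit and a variance trend, over 18706 genes above 0 in all libraries. Fold changes of low genes are understated by the pseudocount of 0.1. Alleles of both parental strains of B6D2F1 mice were mapped to the same reference, and its effect on NK receptor genes was not tested.

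The members and the 14 gene lists were chosen with earlier results of these data known. Named genes were the members, up to 6 called genes per list by adjusted p, the 3 genes most like each member, and the highest and lowest of a list. Genes outside this rule were chosen after their values were seen. Permutation p-values for r came from 100000 draws within groups. On simulated data the fit was tested before use. Positions are from RefSeq on GRCm38. Figures used matplotlib 3.10.9. Alternatives were other pseudocounts, filters, scalings, fits and call criteria, a replicate block, and each mouse left out. All members passed the filter, so no separate test of unfiltered members was made. A result of 1 listed marker gene is not reported here.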

Additional observations from a re-analysis of the deposited data

Results flagged for a closer look

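Tbx21 in PBMC replicate 5 was at 1.26 TPM, far below the other 4 PBMC mice at 2.46 to 2.78 TPM, and the gap was 0.792 of the range of its group, above Dixon's critical value of 0.71 for 5 samples. It was the only such value in 40 sets of 5 mice (10 genes in 4 groups), where chance alone gives about 1 in 20. The same mouse had the lowest Il15 (8.03 TPM) and Ncr1 (11.8 TPM) of all 20 mice, while its Gzma (39.1 TPM) was the highest of the PBMC group.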

How the results depend on the processing

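The study's criteria (a 2-fold change and a raw p below 0.05) called 1 member in IF against control and 0 in PBMC-hCG against IF, PBMC against control and PBMC-hCG against control. Without a filter on low values, PBMC-hCG against IF gave 0 calls and PBMC against control 1, and a fit of only the groups compared gave 0 for PBMC-hCG against IF. PBMC against control gave 1 call (Il15ra) after quantile normalization and after scaling by the median ratio. The cause was not tested. With each mouse left out, the calls ranged from 2 to 4 in IF against control, 0 to 2 in PBMC-hCG against IF, 1 to 3 in PBMC against control and 3 to 5 in PBMC-hCG against control, and were 0 in every such fit of PBMC against IF and of PBMC-hCG against PBMC.

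Il15ra against control was called under all 10 other settings of the same call rule in all 3 comparisons, and Eomes in IF and PBMC-hCG mice likewise. Il2rb in IF mice was lost without a filter (limma adjusted p = 0.0516), after quantile normalization (0.0642) and in the fit of only these groups (0.0916). Under those 10 settings Il15ra in PBMC-hCG against IF had limma adjusted p-values of 0.0223 to 0.0532, and the call was lost under 2. Those of Ncr1 in PBMC-hCG mice were 0.00313 to 0.0652 (lost under 2). Those of Il2rb in PBMC mice were 0.0309 to 0.0731 (lost under 4), and those of Gzma in PBMC mice 0.0425 to 0.0913 (lost under 7).

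Differences near 0 changed sign. Il15 in IF against control became 0.10, 0.03 and 0.02 without control replicate 5, IF replicate 1 and IF replicate 5, and ranged from -0.17 to 0.10 over the mice left out. Prf1 there ranged from -0.070 (without control replicate 2) to 0.28, and Gzmb from -0.49 to 0.055 (without control replicate 5). Il15ra in PBMC-hCG against PBMC became -0.014 after quantile normalization and -0.0049 after median ratio scaling, and ranged from -0.052 (without PBMC replicate 3) to 0.069, with -0.02 without PBMC replicate 5 or PBMC-hCG replicate 3. No called gene of the lists changed sign under either scaling. Scaling by the median ratio moved the share of higher genes among all called from 61.1% to 50.5% in IF against control, from 63.5% to 48.5% in PBMC-hCG against control and from 55.9% to 44.6% in PBMC-hCG against IF, and NK receptor calls in PBMC-hCG against control from 10 to 7.

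With the replicate number as a block, 3, 0, 1, 0, 1 and 4 members were called in IF against control, PBMC against IF, PBMC-hCG against IF, PBMC-hCG against PBMC, PBMC against control and PBMC-hCG against control. In PBMC against control Il2rb (limma adjusted p = 0.058) and Gzma (0.0657) were lost, and no other member's call changed. Mice of the same number correlated at -0.25 to 0.46 in 30 pairs, 8 of them over 0.1. Between control and IF the median was 0.12 for the same number and 0.035 for other numbers. Between IF and PBMC-hCG these medians were -0.090 and 0.0058. For replicate 5, r was 0.40 between control and IF, 0.46 between IF and PBMC and 0.27 between control and PBMC. With PBMC-hCG it was -0.059 (control), -0.090 (IF) and -0.083 (PBMC). These correlations cannot decide whether the numbers pair the mice, which was not tested. The difference in the log2 ratio of Il15ra to Il15 between IF and control was -1.59 to -1.23 with each mouse left out, an alternative added after the data were seen, as were the calls of list genes without each mouse or under both scalings. The number of reads is unknown, so counting error in low genes such as Tbx21 could not be given.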
